A study of Homo sapiens with 12 samples.

Results

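The genes described here encode the enzymes that build cholesterol and fatty acids, with the regulators that control them and a few proteins that activate, esterify or store the fatty acids. They were followed in the human mammary epithelial line HMT-3522 S1, an established line that is not neoplastic and builds polarized acini in basement membrane gel. Of the 32 genes listed, 28 had at least 1 probe set annotated with that gene symbol alone, among 11963 genes with such a probe set: 17 in the sterol arm and 11 in the fatty acid arm. The probe sets of CYP51A1 (2) and FADS1 (3) carry several symbols, and FDFT1 and ACSL3 have none in the annotation used, so these 4 genes were not analysed here. Each gene is represented by its brightest probe set over all 12 arrays, and the others are given beside it.

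The AGA group (4 arrays) received 18-alpha-glycyrrhetinic acid, which blocks communication through gap junctions, and the Aza group (4 arrays) received 5-aza-2'-deoxycytidine, which inhibits the enzymes that methylate DNA. Treatment with either agent (10 µM) began at plating and lasted 10 days, and the labels call the cells of both groups not apically polarized. The vehicle group (4 arrays) is labelled apically polarized. All cultures were grown in 3 dimensions with 5% Matrigel, 8 days with EGF and 48 hours without it, from passage 55 to 60. Every array comes from 1 cell line. The replicates are described as biological, but it is not stated whether each was an independent culture. Tests here therefore rest on variation among these arrays only. Where a fit includes the replicate number, that variation is what remains after differences between replicate numbers are removed. The series asked which transcripts respond to the loss of apical polarity.

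In this pathway, acetyl-CoA is turned into mevalonate, isoprenoids, squalene, lanosterol and then, through a chain of demethylations, reductions and shifts of double bonds, cholesterol. The same acetyl-CoA feeds fatty acid synthesis, followed by desaturation, elongation, coupling to coenzyme A and storage as triglyceride in droplets. The transcription factors SREBP-2 and SREBP-1, encoded by SREBF2 and SREBF1, are held in the endoplasmic reticulum by INSIG proteins when sterol is plentiful and are released to the nucleus when it is scarce. There they bind sterol regulatory elements, usually beside NF-Y and GC boxes, with SREBP-2 acting mainly on sterol genes and SREBP-1 mainly on fatty acid genes. In mammary epithelium the fatty acid arm is best known for supplying milk fat.

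Promoters are shown for the regulator SREBF2 and for the 3 other genes that carry the differences described below or the sterol element. Each runs from 250 bases before to 50 bases after the annotated start (300 bases, from RefSeq on GRCh38.p14, read on the gene's own strand); where a gene has several starts, a window with the sterol element, or otherwise with the most motifs, is shown. Capitals mark every match, on either strand, to the sterol regulatory element TCACNCCAC, the NF-Y box CCAAT and the GC box GGGCGG. The windows are chr22:41832855-41833154 on the plus strand for SREBF2, chr11:121292521-121292820 on the plus strand for SC5D, chr4:184805504-184805803 on the minus strand for ACSL1 and chr3:9878763-9879062 on the minus strand for CIDEC.
SREBF2: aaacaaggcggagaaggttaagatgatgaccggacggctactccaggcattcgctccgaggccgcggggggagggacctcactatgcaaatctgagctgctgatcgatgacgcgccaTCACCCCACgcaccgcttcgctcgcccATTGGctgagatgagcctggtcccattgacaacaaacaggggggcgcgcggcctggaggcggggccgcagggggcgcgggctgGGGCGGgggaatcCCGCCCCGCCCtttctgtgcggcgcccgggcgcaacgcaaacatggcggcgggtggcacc
SC5D: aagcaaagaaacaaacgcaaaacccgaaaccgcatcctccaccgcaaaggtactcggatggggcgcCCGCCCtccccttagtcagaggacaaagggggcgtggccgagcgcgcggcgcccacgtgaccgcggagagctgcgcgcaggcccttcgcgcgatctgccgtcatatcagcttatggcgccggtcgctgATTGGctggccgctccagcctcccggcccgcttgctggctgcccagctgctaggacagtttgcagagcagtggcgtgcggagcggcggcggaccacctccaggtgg
ACSL1: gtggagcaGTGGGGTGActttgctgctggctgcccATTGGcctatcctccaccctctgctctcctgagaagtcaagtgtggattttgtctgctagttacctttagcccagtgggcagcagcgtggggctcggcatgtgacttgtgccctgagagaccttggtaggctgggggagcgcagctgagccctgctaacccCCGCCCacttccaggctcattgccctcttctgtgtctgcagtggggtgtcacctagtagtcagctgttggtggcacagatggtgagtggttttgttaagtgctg
CIDEC: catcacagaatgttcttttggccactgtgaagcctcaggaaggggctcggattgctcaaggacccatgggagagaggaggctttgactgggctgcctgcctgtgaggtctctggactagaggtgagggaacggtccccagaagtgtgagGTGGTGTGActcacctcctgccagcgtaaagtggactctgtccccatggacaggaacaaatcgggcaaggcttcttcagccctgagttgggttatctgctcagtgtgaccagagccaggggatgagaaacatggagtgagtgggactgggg
In SREBF2 the sterol element began at position -133, followed by an inverted NF-Y box at -106. The ACSL1 window, 1 of 5 annotated starts, held an inverted sterol element at -242 and an inverted NF-Y box at -215. In CIDEC an inverted sterol element stood at -101, with neither of the other boxes in the window. SC5D had an inverted NF-Y box at -56 and an inverted GC box at -184, and no sterol element in these letters. Of the 28 listed genes with a promoter in the table, the sterol element was found in 3 (10.7%: SREBF2, ACSL1 and CIDEC), against 1.39% of all 27305 genes. The NF-Y box was found in 22 of the 28 (78.6%), against 39.7% of all genes, and the GC box in 26 (92.9%), against 48.3%. A gene was counted if any of its windows matched. The 28 genes have 44 windows and all 27305 genes 35116, so the listed genes had more windows each, which favours a match. These are matches of letters in a fixed window and say nothing about occupancy. ACAT2, FDFT1, SQLE and FASN were not among the promoters used.

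Levels are given as log2 intensity of quantile-normalized arrays, floored at 0. Differences are in log2 units ± SE from limma with the replicate number as a block (called the block fit), and adjusted p-values are Benjamini-Hochberg over all 22215 probe sets, with a threshold of 0.05. A second fit kept the block and let the prior variance follow intensity, with a robust prior (called the trend fit). A same-number pair is 1 treated array and 1 comparison array that carry the same replicate number. Groups do not overlap where all arrays of a group lie above all arrays of another. How many of all genes show this was not counted, so it only describes the arrays. A probe set's brightness depends on its probes, so levels are compared between groups and never between genes. As these are bulk arrays, fewer cells of a type and less RNA per cell cannot be told apart.

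Median deposited intensity ran from 23.3 to 35.9 per array, and precision is limited by the number of arrays. The arrays of replicate 4 stood apart from the other 9 in all 3 groups on the first principal component, and values without replicate 4 are given beside several genes that these arrays move. Of 7 mammary epithelial markers found, 5 lay above the median level of all probe sets (4.76), KRT5 and KRT14 among them, whereas KRT19 was at the floor on every array and EPCAM was dim. None of 4 leukocyte or 4 endothelial markers lay above that level, and 1 of 5 adipocyte markers (PLIN1) and 2 of 6 fibroblast markers did. Among the 28 genes, 25 lay above the median level, the exceptions being MVD, TM7SF2 and PLIN2.

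No gene of either arm passed the adjusted threshold of the block fit in any of the 4 comparisons made, where 0% of the 11963 genes did. The fit without the block also called 0 of the 28. At an unadjusted p under 0.05 the block fit (limma) had 3 of 28 higher and 1 lower in AGA than in vehicle, 1 higher and 0 lower in Aza than in vehicle, and 3 higher and 3 lower in AGA than in Aza. Over all genes the shares in AGA against vehicle were 5.37% higher and 4.47% lower. In Aza against vehicle they were 2.89% and 2.36%, and in AGA against Aza 4.79% and 4.41%. The trend fit called 1 of the 28 higher in AGA than in vehicle (0.41% of all genes) and 0 lower (0.351%), 0 in Aza against vehicle (0.00836%), and 1 higher and 2 lower in AGA than in Aza (0.443% and 0.552%). The genes called were SC5D in the first comparison and ACSL1, FASN and CIDEC in the last. These calls needed the block as well: with the trend and the robust prior but no block, 0 probe sets were called in any comparison, and the limma adjusted p was 1 for SC5D, 0.899 for ACSL1, 0.679 for FASN and 1 for CIDEC. With the mean of both treatments against vehicle, 22 of the 28 lay above 0 (51.1% of all genes), 5 were higher in 4 of 4 pairs (9.5%) and 1 was lower in 4 of 4 (8.77%), and at an unadjusted p under 0.05 there were 2 higher (3.77%) and 0 lower (2.98%). In AGA minus Aza, 5 of 28 were higher in 4 of 4 pairs (9.35%) and 3 lower (8.6%). The comparisons of AGA and of Aza with vehicle share the vehicle arrays, so their values are given side by side only.

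In AGA cultures most sterol genes lay slightly above vehicle. The difference was above 0 for 15 of 17, with a median of 0.20, where 51.5% of all genes were above 0 with a median of 0.01. On the deposited scale without normalization the median of all genes was -0.24 and that of the sterol arm -0.05, with 7 of 17 above 0, so that the arm stood 0.19 above all genes on both scales. In Aza cultures 12 of 17 were above vehicle, with a median of 0.06, where 50.3% of all genes were (median 0 on the deposited scale, with -0.06 for all genes). Higher values in all 4 same-number pairs were seen for 6 of 17 in AGA (10.4% of all genes) and for 3 of 17 in Aza (8.22%). The sterol median within each pair of AGA and vehicle was 0.15, 0.33, 0.27 and 0.04 for numbers 1 to 4.

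**Figure D1:**
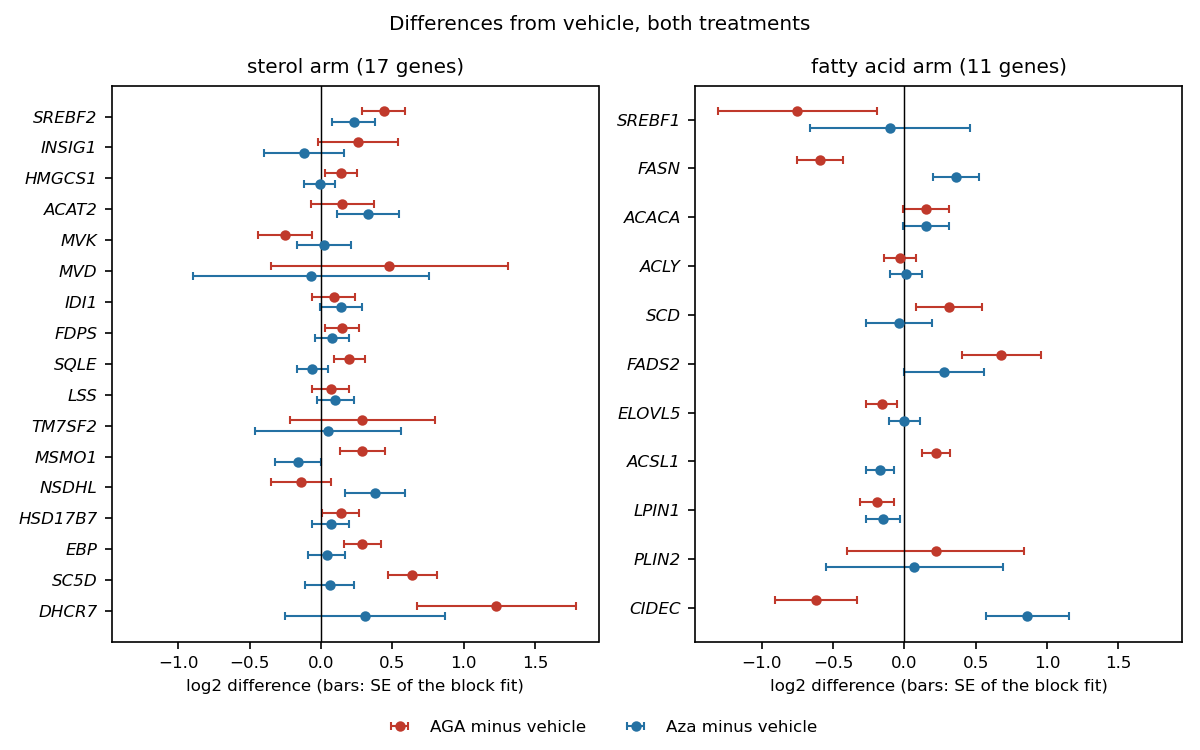
Differences from vehicle for the 17 sterol and 11 fatty acid genes on a log2 axis, with AGA minus vehicle in red and Aza minus vehicle in blue; points are the estimates and bars the SE of the block fit (n = 4 arrays per group). Most red points of the sterol arm lie right of 0 (median 0.20), while FASN and CIDEC lie left of 0 in AGA and right of 0 in Aza.

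Among the regulators, SREBF2 measured 6.10, 6.26, 5.69 and 5.39 on AGA arrays 1 to 4, 5.45, 5.85, 5.72 and 5.57 on Aza arrays and 5.52, 5.65, 5.42 and 5.10 on vehicle arrays. AGA arrays were above vehicle in every pair, although the groups overlap because AGA 4 lies below vehicle 1, 2 and 3. The difference was 0.44 ± 0.15 in AGA (limma block fit, unadjusted p = 0.0202, adjusted p = 0.469) and 0.23 ± 0.15 in Aza (adjusted p = 0.928). Over both treatments together it was 0.33 ± 0.13 (adjusted p = 0.737), higher in 4 of 4 pairs. The second SREBF2 probe set gave 0.27 ± 0.24 in AGA and 0.15 ± 0.24 in Aza.

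INSIG1, which retains SREBP in the endoplasmic reticulum and is itself a target of SREBP, read 5.87, 6.83, 6.10 and 5.78 on AGA arrays, 5.87, 5.52, 5.96 and 5.69 on Aza arrays and 5.80, 5.50, 5.96 and 6.27 on vehicle arrays. Only AGA 2 lies outside the range of vehicle. The difference of 0.26 ± 0.28 in AGA rests on that array, being -0.07 without it. On the deposited scale the difference was -0.02, where all genes had a median of -0.24. The dimmer INSIG1 probe sets gave 1.61 ± 0.49 (adjusted p = 0.452) and 0.51 ± 0.26 (adjusted p = 0.599) in AGA, and 0.32 ± 0.49 and -0.27 ± 0.26 in Aza. The first of these was higher in AGA than in vehicle in 4 of 4 pairs with no overlap (limma block fit, unadjusted p = 0.0128). It averaged 3.82 ± 0.42 in AGA, 2.53 ± 1.03 in Aza and 2.21 ± 0.98 in vehicle (SD, n = 4 each), which is below the median level of all probe sets. The brightest INSIG1 probe set gave -0.12 ± 0.28 in Aza. The probe sets of this gene therefore disagree in size in AGA and in sign in Aza.

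SREBF1 lay at 5.58, 4.78, 5.70 and 1.76 on AGA arrays, 5.59, 5.14, 5.47 and 4.22 on Aza arrays and 6.60, 4.95, 4.74 and 4.52 on vehicle arrays. The difference of -0.75 ± 0.56 in AGA (adjusted p = 0.722) comes largely from array 4, and was -0.08 over replicates 1 to 3. In Aza it was -0.10 ± 0.56. The replicate spread of SREBF1 was therefore larger than any difference between groups.

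The 6 measured steps from acetyl-CoA units to farnesyl diphosphate showed small values. HMGCS1, which makes the precursor of mevalonate, differed by 0.14 ± 0.11 in AGA and -0.01 ± 0.11 in Aza, and its second probe set by 0.14 ± 0.14 and -0.06 ± 0.14. MVK, the mevalonate kinase, was 1 of only 2 sterol genes below vehicle in AGA (-0.25 ± 0.19). Its other probe sets gave -0.04 ± 0.32 and -0.01 ± 0.36 in AGA, and -0.79 ± 0.32 (lower in 4 of 4 pairs; limma block fit, adjusted p = 0.91) and -0.22 ± 0.36 in Aza. IDI1, which interconverts the isoprene units, and FDPS, which joins them, differed by 0.09 ± 0.15 and 0.15 ± 0.12 in AGA and by 0.14 ± 0.15 and 0.08 ± 0.12 in Aza. The second IDI1 probe set gave 0.20 ± 0.20 in AGA and 0.15 ± 0.20 in Aza. MVD, the decarboxylase that yields the first isoprene unit, was dim and scattered (0.48 ± 0.83 in AGA, and -0.14 without replicate 4).

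ACAT2, the thiolase that joins acetyl-CoA units, measured 5.97, 6.65, 7.11 and 6.56 on AGA arrays, 6.96, 6.63, 6.70 and 6.73 on Aza arrays and 6.44, 6.20, 6.51 and 6.54 on vehicle arrays. Every Aza array lay above every vehicle array, while the AGA arrays spread on both sides. The difference was 0.15 ± 0.22 in AGA and 0.33 ± 0.22 in Aza (limma block fit, adjusted p = 0.868 and 0.928). No mevalonate step was higher in all 4 pairs in AGA, and 5 of 6 lay above 0 with a median of 0.14.

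SQLE, which oxidises squalene, and LSS, which closes it into lanosterol, differed by 0.20 ± 0.11 and 0.07 ± 0.13 in AGA and by -0.06 ± 0.11 and 0.10 ± 0.13 in Aza. The 2 other SQLE probe sets each gave 0.32 above vehicle in AGA (± 0.17 and ± 0.15), higher in 4 of 4 pairs. The 3 probe sets of SQLE gave 0.26 ± 0.11, 0.46 ± 0.17 and 0.52 ± 0.15 in AGA minus Aza, with limma block-fit adjusted p-values of 0.563, 0.517 and 0.411. The dimmer LSS probe sets gave 0.36 ± 0.16 and -0.21 ± 0.31 in AGA minus vehicle. In Aza minus vehicle the first gave 0.89 ± 0.16 (limma block fit, unadjusted p = 0.000813, adjusted p = 0.746) and the other -0.36 ± 0.31. In AGA minus Aza the first gave -0.53 ± 0.16, lower in 4 of 4 pairs, and the other 0.15 ± 0.31. The probe sets of LSS therefore do not give 1 direction.

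The widest differences of the sterol arm in AGA were those of DHCR7 (1.23) and SC5D (0.64), which act after lanosterol. The other genes of these steps differed by less than SREBF2 (0.44). Of the 7 genes of these steps, 6 lay above vehicle in AGA (51.5% of all genes), with a median of 0.29. In all 4 pairs 5 of 7 did so (10.4%). In Aza 6 of 7 lay above vehicle (50.3%), with a median of 0.06, and 1 of 7 in all 4 pairs (8.22%).

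SC5D, the desaturase that acts shortly before the last step, measured 7.80, 8.46, 8.10 and 7.16 on AGA arrays, 7.54, 7.54, 7.69 and 6.43 on Aza arrays and 7.52, 7.41, 7.28 and 6.74 on vehicle arrays. Within each replicate number AGA was the highest of the 3 groups, and the groups overlap only because AGA 4 is low. SC5D was 0.64 ± 0.17 above vehicle in AGA, which is 1.56-fold (limma block fit, unadjusted p = 0.00545, adjusted p = 0.425), with a trend-fit SE of 0.14 and adjusted p of 0.0412. The pairs differed by 0.29, 1.05, 0.82 and 0.41. In Aza the difference was 0.06 ± 0.17. Against Aza, the AGA arrays were higher by 0.58 ± 0.17 (limma adjusted p = 0.403 in the block fit and 0.0549 in the trend fit).

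The trend-fit call of SC5D depended on single arrays. It held when AGA 1, Aza 3 or Aza 4 was left out (limma adjusted p = 0.0166, 0.0453 and 0.0406) and was lost when any of the other 9 was, with adjusted p-values up to 0.204 without vehicle 3 and differences of 0.52 to 0.75. Without replicate 4 in all groups SC5D differed by 0.72 (limma trend fit, adjusted p = 0.0645). On the deposited scale it differed by 0.38 (0.282), where all genes had a median of -0.24. The second SC5D probe set, dim at 3.47 ± 0.59 in AGA, 3.39 ± 0.32 in Aza and 3.46 ± 1.01 in vehicle (SD, n = 4 each), gave 0.01 ± 0.40 in AGA minus vehicle.

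**Figure D2:**
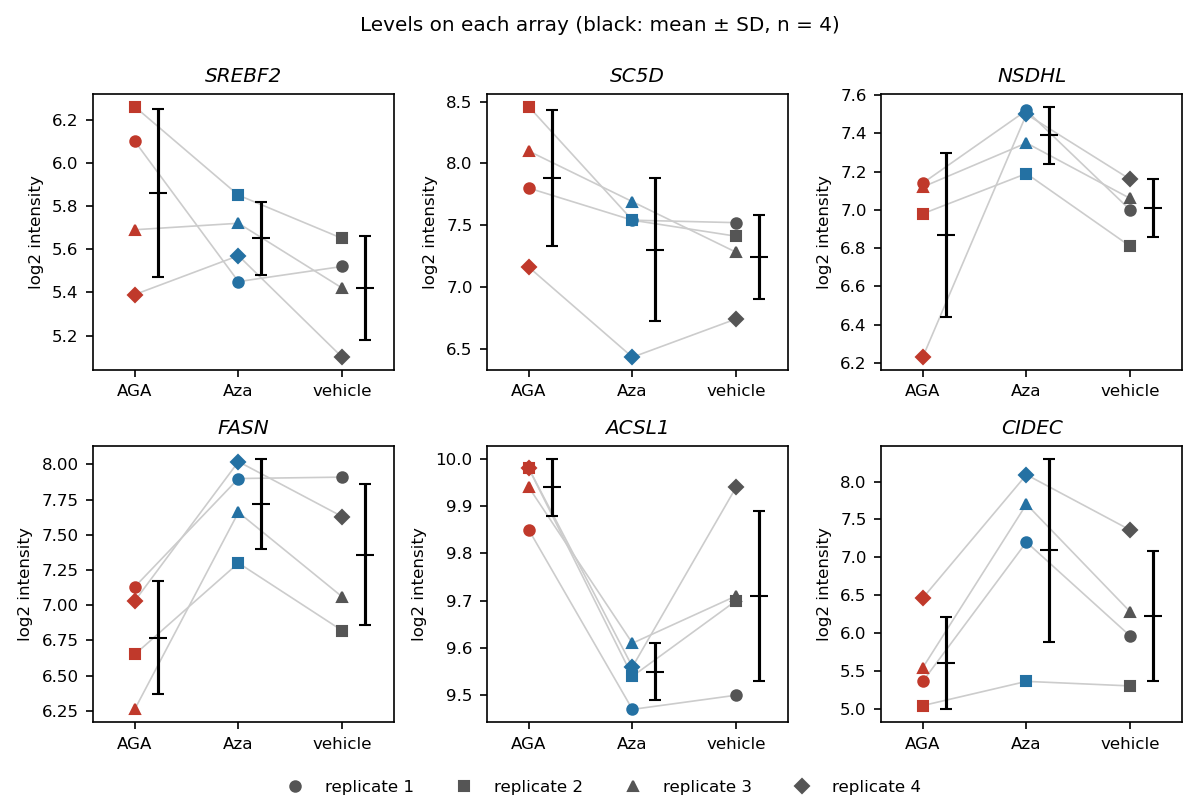
Log2 intensity of 6 genes on every array, in the order AGA, Aza, vehicle; symbols give the replicate number, grey lines join equal numbers, and black marks are the mean ± SD (n = 4). SC5D is highest in AGA in each replicate number, FASN and ACSL1 do not overlap between AGA and Aza, and CIDEC is highest in Aza in each replicate number.

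EBP, the sterol isomerase, read 7.88, 8.45, 8.20 and 7.71 on AGA arrays, 8.05, 7.95, 7.79 and 7.45 on Aza arrays and 7.66, 8.07, 7.82 and 7.53 on vehicle arrays. Its 3 probe sets gave 0.29 ± 0.13, 0.29 ± 0.13 and 0.19 ± 0.11 in AGA minus vehicle, each higher in 4 of 4 pairs, at limma block-fit adjusted p-values of 0.542, 0.552 and 0.636. In Aza they gave 0.04, 0.04 and -0.03. These probe sets of EBP share the arrays and are not independent of each other, and on the deposited scale the brightest gave 0.04 in AGA, where the median of all genes is -0.24.

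MSMO1, the oxidase that removes methyl groups from the sterol ring, measured 8.69, 9.48, 8.64 and 8.19 on AGA arrays, 8.41, 8.54, 8.33 and 7.93 on Aza arrays and 8.64, 8.59, 8.47 and 8.14 on vehicle arrays. In every replicate number the order was AGA, vehicle, Aza, although the groups overlap. The difference was 0.29 ± 0.16 in AGA and -0.16 ± 0.16 in Aza (limma block fit, adjusted p = 0.621 and 0.952), and 0.45 ± 0.16 in AGA minus Aza (adjusted p = 0.509 in the block fit and 0.114 in the trend fit). AGA 2 is the highest array, and its pair differed from vehicle by 0.90 where the others differed by 0.04 to 0.17.

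NSDHL, the dehydrogenase that works with MSMO1 in that demethylation, showed another order. It measured 7.14, 6.98, 7.12 and 6.23 on AGA arrays, 7.52, 7.19, 7.35 and 7.50 on Aza arrays and 7.0, 6.81, 7.06 and 7.16 on vehicle arrays. Every Aza array lay above every AGA and every vehicle array, a separation that was not counted over all genes. NSDHL differed by 0.38 ± 0.21 in Aza minus vehicle (limma block fit, adjusted p = 0.915), by -0.14 ± 0.21 in AGA minus vehicle and by -0.52 ± 0.21 in AGA minus Aza (adjusted p = 0.536). Without replicate 4 the difference was -0.27 in AGA minus Aza and 0.12 in AGA minus vehicle, AGA 4 being the lowest array. The second NSDHL probe set gave 0.52 ± 0.19, -0.04 ± 0.19 and -0.56 ± 0.19 in the same order, with 0.19 in AGA minus vehicle without replicate 4.

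DHCR7, the reductase of the last step to cholesterol, measured 5.62, 6.39, 5.65 and 4.69 on AGA arrays, 5.16, 5.19, 5.44 and 2.86 on Aza arrays and 5.47, 3.24, 4.48 and 4.23 on vehicle arrays. It was higher in AGA than in vehicle in all 4 pairs, by 0.15, 3.15, 1.17 and 0.46. The mean difference of 1.23 ± 0.56 (limma block fit, adjusted p = 0.544) is thus set mostly by the low vehicle 2 array. The second DHCR7 probe set gave 1.73 ± 0.66 in AGA (adjusted p = 0.501), where vehicle 4 read 0.61 and its pair differed by 4.41. Without replicate 4 the first and second probe sets gave 1.49 and 0.84 in AGA. In Aza they gave 0.31 ± 0.56 and 0.84 ± 0.66, the second being 0.10 without replicate 4. HSD17B7, a ketosteroid reductase of the same chain, differed by 0.14 ± 0.13 in AGA, and TM7SF2, a ring reductase, by 0.29 ± 0.51 at a level below the median of all probe sets.

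The fatty acid arm did not share a direction. In AGA 5 of 11 lay above vehicle, with a median of -0.03 and a range of -0.75 to 0.68, and in Aza 7 of 11, with a median of 0.01 and a range of -0.17 to 0.86. On the deposited scale the medians were -0.29 and -0.03, where those of all genes were -0.24 and -0.06. Higher in all 4 pairs were 1 of 11 in AGA and 1 of 11 in Aza, and lower in all 4 were 3 of 11 in AGA (9.11% of all genes) and 1 of 11 in Aza (7.25%).

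FASN, the multi-domain synthase that builds palmitate, measured 7.13, 6.65, 6.26 and 7.03 on AGA arrays, 7.90, 7.30, 7.66 and 8.02 on Aza arrays and 7.91, 6.82, 7.06 and 7.63 on vehicle arrays. The highest AGA array lies below the lowest Aza array, and vehicle overlaps both. FASN differed by -0.59 ± 0.16 in AGA minus vehicle, lower in 4 of 4 pairs (limma block fit, unadjusted p = 0.00667, adjusted p = 0.434; trend fit, adjusted p = 0.0539). In Aza minus vehicle it differed by 0.36 ± 0.16, higher in 3 of 4 pairs (block fit, adjusted p = 0.91). In AGA minus Aza the difference was -0.95 ± 0.16, or 0.517-fold (block fit, unadjusted p = 0.000433, adjusted p = 0.233; trend fit, adjusted p = 0.00238).

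The trend-fit call of FASN between AGA and Aza held when each of the 12 arrays was left out in turn (limma adjusted p of 0.00162 to 0.0224) and without replicate 4 in all groups (0.0292). In the block fit it passed once probe sets below the median level were left out (adjusted p = 0.0382). On the deposited scale FASN stood at -1.16 in AGA minus Aza, where all genes had a median of -0.18. Against vehicle, the trend fit called FASN lower in AGA on median-centred arrays (-0.58, limma adjusted p = 0.0464) and without AGA 2 (-0.71, 0.0366). It also did so on the deposited scale (-0.86, limma adjusted p = 0.0138), where all genes had a median of -0.24. Leaving out any 1 of the other 11 arrays gave no call of FASN against vehicle, with limma adjusted p up to 0.256 without AGA 3. Leaving out replicate 4 in all groups gave no call either (0.197). A dim second FASN probe set, at 2.19 ± 1.95 in AGA, 2.87 ± 0.46 in Aza and 1.80 ± 0.64 in vehicle (SD, n = 4 each), gave -0.68 ± 0.75 in AGA minus Aza and 0.39 ± 0.75 in AGA minus vehicle (-0.19 without replicate 4).

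ACLY, which makes cytosolic acetyl-CoA from citrate, differed by -0.03 ± 0.11 in AGA minus vehicle, 0.01 ± 0.11 in Aza minus vehicle and -0.04 ± 0.11 in AGA minus Aza. Of its other probe sets, one gave -0.14 ± 0.11 in AGA minus vehicle and -0.18 ± 0.11 in AGA minus Aza, lower in 4 of 4 pairs in both, and the other gave 0.17 ± 0.28 and -0.07 ± 0.28. ACACA, which carboxylates acetyl-CoA to malonyl-CoA, measured 7.39, 7.43, 7.31 and 7.73 on AGA arrays, 7.80, 7.21, 7.57 and 7.28 on Aza arrays and 7.50, 7.07, 7.22 and 7.49 on vehicle arrays. These groups overlap throughout, with differences of 0.15 ± 0.16 from vehicle in AGA and 0.15 ± 0.16 in Aza. A dim second ACACA probe set averaged 2.07 ± 1.24 in AGA, 3.05 ± 1.45 in Aza and 3.66 ± 1.06 in vehicle (SD, n = 4 each). It gave -1.58 ± 0.79 in AGA minus vehicle, lower in 3 of 4 pairs (limma block fit, adjusted p = 0.578), -0.61 ± 0.79 in Aza minus vehicle and -0.97 ± 0.79 in AGA minus Aza.

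CIDEC, which promotes fusion of lipid droplets and is best known from fat tissue, measured 5.36, 5.04, 5.54 and 6.46 on AGA arrays, 7.20, 5.36, 7.70 and 8.09 on Aza arrays and 5.96, 5.30, 6.28 and 7.36 on vehicle arrays. In every replicate number Aza was highest and AGA lowest, while the groups overlap because the numbers themselves differ widely. CIDEC differed by -0.62 ± 0.29 in AGA minus vehicle and by 0.86 ± 0.29 in Aza minus vehicle (limma block fit, adjusted p = 0.547 and 0.91). In AGA minus Aza it differed by -1.49 ± 0.29, or 0.356-fold (block fit, unadjusted p = 0.00109, adjusted p = 0.233; trend fit, adjusted p = 0.00373). The pairs of AGA and Aza differed by -1.85, -0.32, -2.16 and -1.63, so replicate 2 carried little of it.

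The trend-fit call of CIDEC between AGA and Aza also held without each array in turn (limma adjusted p of 0.000684 to 0.035) and without replicate 4 in all groups (0.0493), and it passed the block fit once dim probe sets were left out (0.0411). Markers of adipocytes, in which this gene is abundant, summed to intensities of 45.1 to 87.2 on AGA arrays, 51.3 to 129 on Aza arrays and 50.9 to 81.5 on vehicle arrays, with only PLIN1 above the median level of all probe sets. FABP4, a fatty acid carrier of adipocytes, measured 4.25, 4.71, 1.88 and 0.73 on AGA arrays, 6.11, 5.19, 4.67 and 1.60 on Aza arrays and 3.29, 4.40, 3.73 and 2.71 on vehicle arrays. Like CIDEC it was lower in AGA than in Aza in 4 of 4 pairs, by a mean of -1.50 ± 0.64 (limma adjusted p = 0.549 in the block fit and 0.333 in the trend fit). LPL, another marker of the list, went the other way, at 1.38 ± 0.65 and higher in 3 of 4 pairs. PLIN1, ADIPOQ and LEP differed by 0.02 ± 0.38, -0.02 ± 0.77 and 0 ± 0.87, so the adipocyte markers did not share a direction. Fibroblast markers summed to 132 to 217 on AGA arrays, 219 to 286 on Aza arrays and 182 to 260 on vehicle arrays. AGA and Aza thus do not overlap there, by a narrow margin. LUM was at the floor on 9 of the 12 arrays. DCN, a matrix proteoglycan, differed by -1.47 ± 0.28 in AGA minus Aza with no overlap (limma adjusted p = 0.233 in the block fit and 0.0162 in the trend fit) and by 1.31 ± 0.28 in Aza minus vehicle (0.81 and 0.287). COL1A1, a collagen chain, differed by -0.45 ± 0.12 in AGA minus Aza, lower in 4 of 4 pairs (0.373 and 0.0952). The dimmer collagen markers COL1A2 and COL3A1 went the other way, at 1.12 ± 0.76 and 0.42 ± 1.19. PDGFRB and LUM differed by -0.34 ± 0.68 and -0.22 ± 0.23, so the fibroblast markers did not share a direction. The part of the adipocyte and fibroblast markers in the differences of FASN, CIDEC and ACSL1 was not tested.

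ACSL1, which couples long fatty acids to coenzyme A, measured 9.85, 9.98, 9.94 and 9.98 on AGA arrays, 9.47, 9.54, 9.61 and 9.56 on Aza arrays and 9.50, 9.70, 9.71 and 9.94 on vehicle arrays. AGA and Aza do not overlap, and vehicle overlaps both. ACSL1 differed by 0.39 ± 0.10 in AGA minus Aza, or 1.31-fold (limma block fit, unadjusted p = 0.00461, adjusted p = 0.353; trend fit, adjusted p = 0.0164), and the pairs differed by 0.38, 0.43, 0.33 and 0.42. Against vehicle the differences were 0.22 ± 0.10 in AGA, higher in 4 of 4 pairs, and -0.17 ± 0.10 in Aza, lower in 4 of 4.

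The second ACSL1 probe set read 9.51, 9.46, 9.60 and 9.25 on AGA arrays, 9.07, 8.98, 8.60 and 8.98 on Aza arrays and 9.11, 8.89, 8.66 and 8.91 on vehicle arrays. Here AGA stood above both other groups with no overlap. It differed by 0.56 ± 0.14 in AGA minus vehicle (limma trend fit, adjusted p = 0.0197), by 0.55 ± 0.14 in AGA minus Aza (0.0162) and by 0.01 ± 0.14 in Aza minus vehicle. The probe sets of ACSL1 thus agree on the sign of AGA minus Aza and place vehicle differently.

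Single arrays ended these calls of ACSL1. For the brightest probe set in AGA minus Aza the trend-fit call was lost without AGA 2, AGA 3 or any 1 Aza array (6 of 12, with limma adjusted p up to 0.0767 without Aza 4). It was also lost without replicate 4 in all groups (0.0623) and on the deposited scale (0.547, difference 0.22), where all genes had a median of -0.18. The second probe set in AGA minus vehicle was called in 8 of 12, and lost without AGA 3 (0.0931), vehicle 2 (0.067), vehicle 3 (0.131) or vehicle 4 (0.0629).

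**Figure D3:**
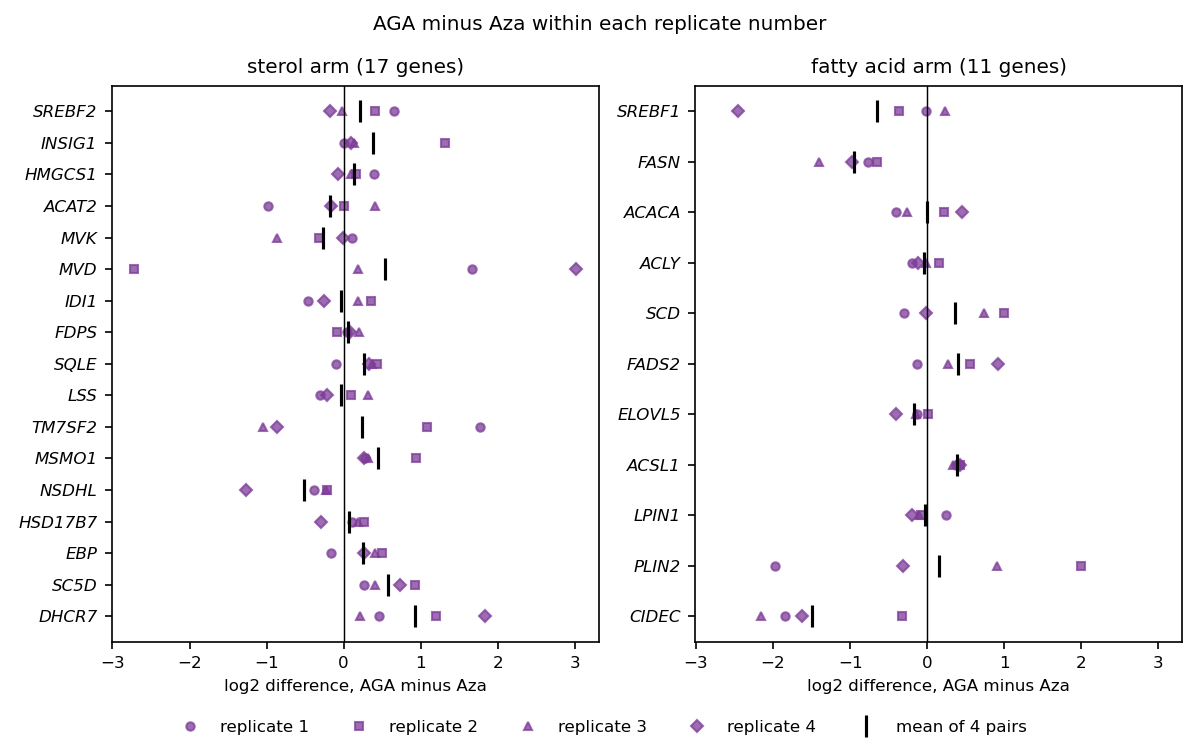
AGA minus Aza within each of the 4 replicate numbers, in log2 units, for the 17 sterol and 11 fatty acid genes; each symbol is 1 pair and the black mark their mean. All 4 pairs of FASN (-0.65 to -1.40) and CIDEC (-0.32 to -2.16) lie left of 0, and those of ACSL1 (0.33 to 0.43) lie together right of 0.

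The desaturases and the elongase varied more between replicate numbers than between groups. SCD, which makes monounsaturated fatty acids, differed by 0.31 ± 0.23 in AGA and -0.04 ± 0.23 in Aza, and ELOVL5, which lengthens polyunsaturated ones, by -0.16 ± 0.11 and 0.00 ± 0.11. The 3 other SCD probe sets gave 0.25 ± 0.41, 1.20 ± 0.61 and -0.15 ± 0.62 in AGA and -0.43 ± 0.41, 0.23 ± 0.61 and 0.20 ± 0.62 in Aza. The 2 other ELOVL5 probe sets gave 0.08 ± 0.18 and -0.71 ± 0.51 in AGA and -0.22 ± 0.18 and -0.37 ± 0.51 in Aza. FADS2, which inserts double bonds into polyunsaturated fatty acids, measured 5.26, 5.67, 5.19 and 4.63 on AGA arrays, 5.38, 5.12, 4.92 and 3.71 on Aza arrays and 5.43, 5.06, 4.72 and 2.81 on vehicle arrays. Its difference of 0.68 ± 0.28 in AGA (limma block fit, adjusted p = 0.52) was 0.30 without replicate 4, because vehicle 4 is far below the rest.

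LPIN1, the phosphatidate phosphatase of triglyceride synthesis, measured 10.52, 10.27, 9.87 and 10.10 on AGA arrays, 10.28, 10.35, 9.98 and 10.29 on Aza arrays and 10.63, 10.34, 10.28 and 10.26 on vehicle arrays. It was lower in AGA than in vehicle in all 4 pairs, by a mean of -0.19 ± 0.12, and differed by -0.15 ± 0.12 in Aza (limma block fit, adjusted p = 0.66 and 0.928). The other LPIN1 probe sets gave -0.20 and -0.20 in AGA and -0.19 and -0.16 in Aza. PLIN2, a droplet coat protein, was dim in all groups and differed by 0.22 ± 0.62 in AGA and 0.07 ± 0.62 in Aza, and its second probe set by 0.44 ± 0.55 and 0.79 ± 0.55.

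Several of these genes differed more between replicate 4 and the other numbers than between groups. Averaged over the 3 groups, replicate 4 minus replicates 1 to 3 was -1.90 for SREBF1, -1.71 for SCD, -1.48 for FADS2, -0.93 for SC5D and -0.88 for IDI1. In the sterol arm the median of this difference was -0.39, against 0.02 for all genes. Replicate 4 was the lowest of the 4 numbers in all 3 groups for 5 of 17 sterol genes (IDI1, LSS, MSMO1, EBP and SC5D) and for 3 of 11 fatty acid genes (SREBF1, SCD and FADS2), where 12.8% of all genes were. It was the highest in all 3 groups for FDPS alone in the sterol arm and for ACLY (0.42), ELOVL5 (0.82) and CIDEC (1.33) in the fatty acid arm, where 12.6% of all genes were. FASN lay 0.37 higher in replicate 4. No label says what the replicate number stands for, so nothing further can be tied to it.

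**Figure D4:**
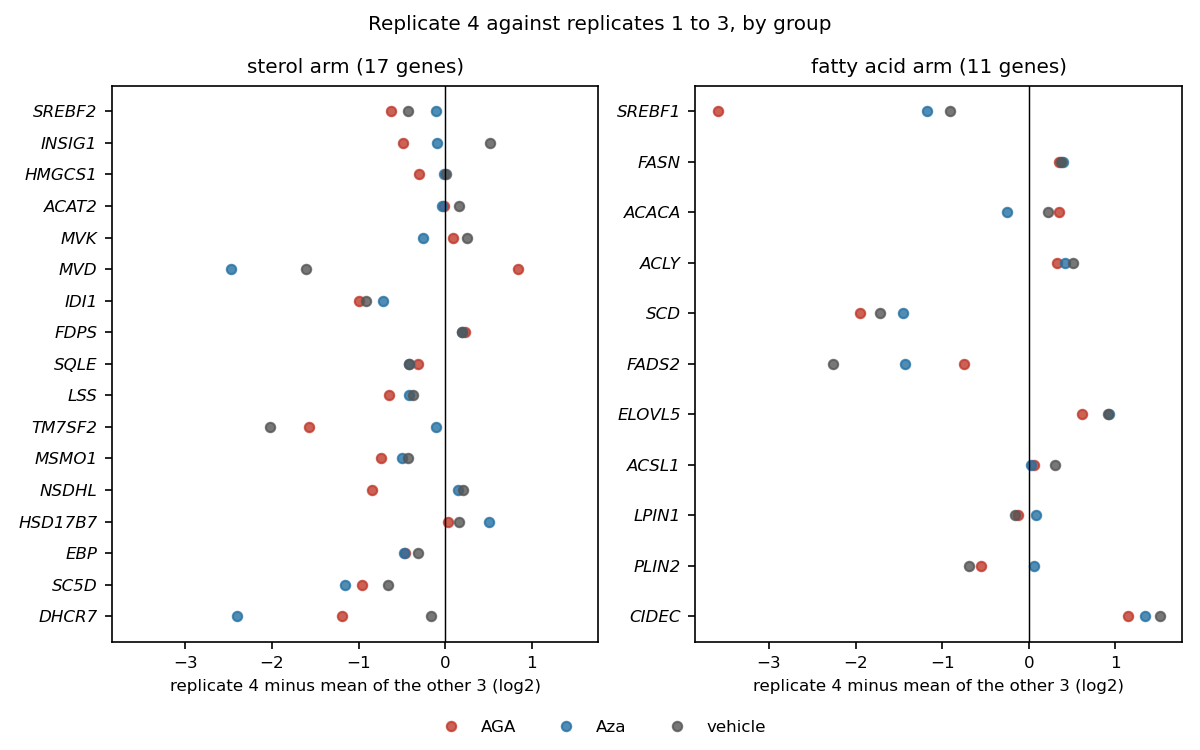
Replicate 4 minus the mean of the other 3 replicates in each group, in log2 units, for the 17 sterol and 11 fatty acid genes, with AGA in red, Aza in blue and vehicle in grey. SREBF1, SCD and FADS2 lie left of 0 and ELOVL5 and CIDEC right of 0 in all 3 groups.

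Other genes of the same pathways were read from lists beside the 28. Of the 5 genes of sterol egress and storage, 5 lay above vehicle in AGA (51.5% of all genes), with a median of 0.29. NPC2, which carries cholesterol out of lysosomes together with NPC1, measured 9.65, 10.35, 10.02 and 9.89 on AGA arrays, 9.27, 9.98, 9.59 and 9.23 on Aza arrays and 9.18, 9.84, 9.49 and 8.83 on vehicle arrays. Within every replicate number AGA was highest and vehicle lowest. NPC2 differed by 0.64 ± 0.12 in AGA minus vehicle (limma block fit, adjusted p = 0.411; trend fit, 0.00443) and by 0.18 ± 0.12 in Aza minus vehicle, and its trend-fit call in AGA held without each of the 12 arrays. LIPA, the lysosomal lipase that frees cholesterol from its esters, differed by 0.29 ± 0.11 in AGA and -0.05 ± 0.11 in Aza, and STARD3 by 0.33 ± 0.22 in AGA. NPC1 differed by 0.15 ± 0.12 and SOAT1, which esterifies cholesterol, by 0.01 ± 0.22 in AGA.

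In the list of LXR, the nuclear receptor that answers to oxysterols, 4 of 5 genes lay below vehicle in AGA and 5 of 5 in Aza. Of all genes, 51.5% and 50.3% lay above vehicle. MYLIP, 1 of these 5, was dim and scattered (0.20 ± 1.04 in AGA and -1.24 ± 1.04 in Aza). ABCA1, which exports cholesterol and is a target of LXR, measured 7.63, 6.50, 7.37 and 6.11 on AGA arrays, 8.26, 7.16, 7.77 and 6.65 on Aza arrays and 8.63, 7.32, 7.42 and 7.0 on vehicle arrays. AGA was the lowest of the 3 groups within every replicate number. ABCA1 differed by -0.69 ± 0.17 in AGA minus vehicle (limma block fit, adjusted p = 0.425; trend fit, 0.0333) and by -0.13 ± 0.17 in Aza minus vehicle. Its trend-fit call held in 4 of 12 cases of leaving out 1 array and the adjusted p reached 0.138 without vehicle 4, and a second ABCA1 probe set gave -0.45 ± 0.12 (0.11). NR1H3, the receptor itself, and ABCG1, another exporter, differed by -0.23 ± 0.22 and -0.30 ± 0.33 in AGA.

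Of 7 further sterol genes, 0 passed in any of the 3 limma fits. At an unadjusted p under 0.05 in the block fit, 1 was lower in AGA than in vehicle (4.47% of all genes). SCAP, the escort of SREBP, differed by -0.37 ± 0.14 in AGA, INSIG2 by 0.20 ± 0.15 and PMVK by 0.14 ± 0.13. Of 14 further fatty acid genes, 7 lay above and 7 below vehicle in AGA and 0 passed. At an unadjusted p under 0.05 (limma block fit), 1 was higher and 1 lower (5.37% and 4.47% of all genes). ME1, which supplies NADPH for synthesis, differed by 0.56 ± 0.13 in AGA, higher in 4 of 4 pairs (limma trend fit, adjusted p = 0.126), SCD5 by -0.48 ± 0.19 and ELOVL6 by 0.58 ± 0.25. Of 14 genes of fatty acid oxidation and PPAR signalling, 8 lay above vehicle in AGA (51.5% of all genes) and 0 passed. At an unadjusted p under 0.05 (limma block fit), 1 was higher (5.37% of all genes). It was CPT1A, which admits fatty acids to mitochondria, at 0.42 ± 0.17. ACADVL stood at 0.20 ± 0.12 and PDK4 at 0.20 ± 0.13.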

How the data were processed

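RNA from 12 samples was hybridised to single-colour Affymetrix arrays, 1 sample per array. The values deposited by the authors are linear intensity per probe set, made with GCOS per the submitters' processing notes, with no version, algorithm or scaling given in the sources used here. Here log2 was taken, the arrays were quantile normalized because their medians differed by 0.62 (limit 0.5), and values below 0 were set to 0. Control probe sets (62 of 22277) were left out. Symbols came from the platform annotation: 19064 probe sets carry 1 symbol, 1043 several and 2108 none, and 19052 matched the gene table of GRCh38.p14. The 12 arrays were fitted together, with group and replicate number as terms, by lmFit and eBayes of limma 3.58.1 (R 4.3.3), and tests were two-sided. The scripts were tested on simulated data.

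The labels give only the replicate numbers and do not say that equal numbers belong together. Arrays were paired by number because the rule that defines this gene set does so, and the data were then compared with that pairing. Deviations of same-number arrays of different groups correlated by over 0.1 in 12 of 12 pairs (0.368 to 0.781; different numbers at most 0.181) over the 11107 probe sets above the median level. Over all 22215 probe sets this held in 6 of 12 (0.0587 to 0.261; different numbers at most 0.0293). The first component held 43.4% and 16.4% of the variance in these sets.

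Members, lists, fits and naming rules were chosen with earlier results of these data known. Values array by array are given for the regulators, for members passing in any fit and for the 3 lowest p per arm and comparison. Alternatives were the fit without the block, the trend and robust prior with and without the block, Holm adjustment, other scalings and floors, dim probe sets left out, the mean over probe sets, and leaving out arrays.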

Additional observations from a re-analysis of the deposited data

Results flagged for a closer look

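In 6 of 84 groups of 4 arrays, 1 array lay far from the other 3 of its group (Dixon's test), where chance gives about 1 in 20. MVD read 0.47 on AGA 2. On Aza 4, SQLE read 8.27, SC5D 6.43 and DHCR7 2.86. SCD read 6.61 on AGA 4 and ELOVL5 11.10 on vehicle 4. Of these 6 values, 5 came from arrays of replicate 4, which stood apart in all 3 groups.

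For 4 genes the 2 treatments differed from vehicle in opposite directions in every same-number pair, or differed from each other in the trend fit. MSMO1 lay above vehicle in 4 of 4 pairs in AGA and below it in 4 of 4 in Aza, and AGA minus Aza was 0.45, which passed in neither fit (limma adjusted p = 0.509 and 0.114). The brightest ACSL1 probe set had the same pattern, with 0.39 in AGA minus Aza. CIDEC had the opposite one, with -1.49. The share of all genes with either pattern was not counted. Some pair differences were small, such as 0.04 for MSMO1 in AGA, -0.03 for ACSL1 in Aza and 0.05 for CIDEC in Aza. The second ACSL1 probe set lacked the pattern, at 0.01 in Aza minus vehicle, with 2 pairs higher and 2 lower. FASN, at -0.95 in AGA minus Aza, was below vehicle in 4 of 4 pairs in AGA and above it in 3 of 4 in Aza. In AGA minus Aza, ACSL1, CIDEC and FASN passed in the trend fit (limma adjusted p = 0.0164, 0.00373 and 0.00238). They did not pass in the block fit, nor with the trend and no block.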

How the results depend on the processing

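Whether any gene of the 2 arms was called depended on the prior variance and the block. The block fit called 0 in all 4 comparisons and the trend fit 1 in AGA minus vehicle and 3 in AGA minus Aza. With trend and block together, the deposited scale called 2 and 2, median centring 2 and 3, and leaving out replicate 4 called 0 and 2. With the trend and no replicate block, 0 genes and 0 probe sets were called in each of the 4 comparisons. These combinations were chosen after seeing the data. Leaving out dim probe sets in the block fit called 2 in AGA minus Aza, with 11107 probe sets adjusted over.

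Over all probe sets the block fit called 2, 0, 2 and 0 in AGA minus vehicle, Aza minus vehicle, AGA minus Aza and both treatments minus vehicle. Without the replicate block it called 2, 2, 3 and 1, and 0 of the 28 genes either way. With a common prior variance, the SE in AGA minus Aza was 0.29 for FASN and 0.61 for CIDEC without the block, against 0.16 and 0.29 with it. The trend fit called 156, 1, 189 and 0, without normalization 322, 1, 159 and 4, with median centring 156, 3, 167 and 6, and without replicate 4 in all groups 44, 2, 85 and 0. In the block fit AGA minus vehicle had 0 with Holm adjustment, on median-centred arrays, without normalization, with the floor at 16, with dim probe sets left out and without replicate 4. AGA minus Aza had 4 with the floor at 16, 83 with dim probe sets left out and 0 without replicate 4. Leaving out 1 array gave 0 to 1 in AGA minus vehicle, Aza minus vehicle and AGA minus Aza.

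On the deposited scale the sterol medians were -0.05, 0, 0 and -0.04 in the same order of comparisons, where all genes had -0.24, -0.06, -0.18 and -0.15, and the fatty acid medians -0.29, -0.20 and -0.11 in AGA minus vehicle, AGA minus Aza and both treatments. Leaving out 1 array gave sterol medians of 0.13 to 0.24 in AGA minus vehicle and fatty acid medians of -0.04 to 0.10 in Aza minus vehicle. INSIG1 in AGA minus vehicle turned to -0.02 on the deposited scale and -0.07 without AGA 2 (up to 0.46, without vehicle 4), and ACACA over both treatments to -0.03 on the deposited scale. Of the values of single genes, 537 kept sign and side of the threshold, 6 newly passed and 3 turned. The cause was not tested. With 4 arrays per group and 6 residual degrees of freedom, small differences of dim probe sets could not be resolved.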

Other observations

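Aza cultures held 2 lower values among the further fatty acid genes that the naming rule did not select, so they were chosen after their values were seen. MLXIPL, which encodes the carbohydrate-responsive factor ChREBP, differed by -2.08 ± 0.45 in Aza minus vehicle (limma block fit, unadjusted p = 0.00226, adjusted p = 0.81) and by -0.77 ± 0.45 in AGA minus vehicle. ACSL4, which activates polyunsaturated fatty acids, differed by -0.81 ± 0.19 in Aza (unadjusted p = 0.00345, adjusted p = 0.861) and by -0.37 ± 0.19 in AGA. Both were lower in Aza in 4 of 4 pairs (7.25% of all genes), with no overlap between Aza and vehicle, which was not counted over all genes. Neither passed in the block, no-block or trend fit. MLXIPL was dim, at 2.15 ± 0.59 in Aza, 3.46 ± 1.33 in AGA and 4.23 ± 0.32 in vehicle (SD, n = 4 each), below the median level of all probe sets. ACSL4 was lower than vehicle in AGA too, in 4 of 4 pairs (9.11% of all genes) with no overlap.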
